A study of Homo sapiens with 48 samples.

Results

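The NRF2 target genes examined here are NQO1, HMOX1, GCLM, GCLC, TXNRD1, SRXN1, OSGIN1, SLC7A11, TRIM16L and ME1, 10 of the 29744 genes in the deposited tables. They were chosen by name as known targets of the transcription factor NRF2, with earlier results of these data known, and were kept if detected. All 10 were detected and passed the filter on low counts in both arms of the study. GCLC lay closest to the limit, with 0 to 39 counts per library, and next came OSGIN1 with 5 to 131. The cells were IL11mNG fibroblasts, an immortalized human skin fibroblast line (CRL-4001) with mNeonGreen placed at IL11 as a fluorescent reporter, from sorted single-cell clones. In the CRISPRko arm the cells carried Cas9 with a lentiviral GLIS3 guide RNA (H47_KO, GLIS3 CRISPRko) or a non-targeting guide (H47_Ctrl). In the CRISPRa arm they carried dCas9–VP64, an inactive Cas9 joined to a transcriptional activator, and the groups are named by their descriptions, VP64_A and VP64_Ctrl, because the sample titles call VP64_A the control. All cells of both arms were held with 10 ng/ml of TGFβ and the same dose of IL-1β for 0, 6, 12 or 24 h, with 3 libraries for each of the 16 conditions. Each group was 1 selected bulk population, so the guide and the population that carried it cannot be told apart. Nothing in the labels says that the 3 libraries of a condition came from separate cultures. The paper states for its in vitro work in general at least 3 independent biological replicates, without saying how those of this RNA-seq were made. The p-values measure the spread between these libraries, which may be technical.

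NRF2, encoded by NFE2L2, is held at a low level in resting cells by KEAP1, which presents it for degradation. Electrophiles and oxidants disable KEAP1, and NRF2 then binds antioxidant response elements in DNA as a pair with a small MAF protein, at sites that the repressor BACH1 can also occupy. Its targets make glutathione, import cystine, keep thioredoxin reduced, supply NADPH and break down quinones and haem, and they are used widely as readouts of oxidative stress in fibroblasts.

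Levels of different genes were compared in TPM, a measure scaled for transcript length. NQO1, a quinone reductase, had the highest median over the 48 libraries (429 TPM), followed by TXNRD1, the cytosolic thioredoxin reductase, with 319.7 TPM. The other members had medians of 28.4 TPM (TRIM16L), 17.2 TPM (ME1), 13.6 TPM (HMOX1), 8.96 TPM (SLC7A11), 5.06 TPM (GCLM), 4.75 TPM (SRXN1), 4.22 TPM (OSGIN1) and 0.815 TPM (GCLC). SLC7A11, the cystine importer, varied most between conditions, from a mean of 0.890 TPM in VP64_A at 12 h to 92.2 TPM in VP64_Ctrl at 0 h, a ratio of 104. These VP64_Ctrl libraries stood at 52.6, 41.7 and 182 TPM, so replicate 3 raised both that mean and the ratio. The VP64_A libraries at 12 h stood at only 1.28, 1.06 and 0.325 TPM, on 13 to 21 counts. On CPM (counts scaled to library size) the spread was smaller, with means of 3.65 in these VP64_A and 91.1 in these VP64_Ctrl libraries. TXNRD1 (ratio 12.4) and NQO1 (ratio 10.2) also had their lowest means in VP64_A, at 24 h, and their highest in GLIS3 CRISPRko, at 6 h and at 0 h. For NQO1 at 0 h the mean of GLIS3 CRISPRko (778 TPM) was close to that of VP64_Ctrl (753 TPM), and their libraries overlapped. ME1, malic enzyme, varied least, with a ratio of 2.12 between its highest and lowest condition means.

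The members lie on 8 chromosomes (GRCh38): GCLM on chromosome 1 (93885199 to 93909456, minus strand), SLC7A11 on chromosome 4 (138164097 to 138242349, minus), GCLC on chromosome 6 (53497341 to 53616970, minus) and ME1 on the same chromosome (83210402 to 83431051, minus). TXNRD1 lies on chromosome 12 (104215779 to 104350307, plus), NQO1 on chromosome 16 (69706996 to 69726668, minus), OSGIN1 on chromosome 16 (83931311 to 83966332, plus) and TRIM16L on chromosome 17 (18697998 to 18736118, plus). SRXN1 lies on chromosome 20 (646615 to 653200, minus) and HMOX1 on chromosome 22 (35380361 to 35394214, plus). Reads were counted per whole gene. RefSeq promoters (GRCh38.p14, 250 bases before to 50 bases after a start) were matched for 7 members with 8 starts, and were searched on both strands for TGACNNNGC, the core of the antioxidant response element. This run of letters was found in 13.3% of all 35116 promoters and at 4 of the 8 starts, in the members GCLM, TXNRD1 and ME1. Of these, TXNRD1 was lower in VP64_A than in VP64_Ctrl, and GCLM was higher on average, a call lost on TPM. A link between the motif and the direction of change was not tested. The motif is shown here in capitals and 5′ to 3′ on the gene's strand.
GCLM (chr1:93909446-93909474, minus strand): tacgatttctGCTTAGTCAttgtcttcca
TXNRD1, the first start (chr12:104215670-104215698, plus strand): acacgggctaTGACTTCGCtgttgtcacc
TXNRD1, the second start (chr12:104286920-104286948, plus strand): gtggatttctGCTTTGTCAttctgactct
ME1 (chr6:83431170-83431198, minus strand): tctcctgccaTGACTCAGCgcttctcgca
Positions are counted from the RefSeq start of each promoter, which can differ from the gene limits given above. The capitals lie at −34 in GCLM, at −99 and −102 at the starts of TXNRD1, and at −137 in ME1. The matches of GCLM and of the second TXNRD1 start read as the motif on the opposite strand. TXNRD1 held a further match at −8 and ME1 at 11. The ME1 match also holds TGANTCA, the AP-1 motif, which occurs in 7.71% of all promoters and in the window of OSGIN1 as well. The windows of NQO1, GCLC, SRXN1 and OSGIN1 hold no TGACNNNGC, and HMOX1, SLC7A11 and TRIM16L had no entry. Bases outside these windows were not searched, so a match elsewhere in or near a gene would not be seen.

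GLIS3 was checked first. Its level, in CPM (counts scaled to library size), ranged from 0.146 to 2.46 in GLIS3 CRISPRko and from 1.55 to 8.63 in H47_Ctrl, and from 13.5 to 38.02 in VP64_A and from 2.31 to 5.29 in VP64_Ctrl, so it goes with the descriptions and against the titles of the CRISPRa arm. Libraries held 2321990 to 10661004 estimated counts (median 5139646). All 10 fibroblast markers were detected in every library. Of 12 markers of epithelial, melanocyte, leukocyte and endothelial cells 10 had a median of 0 TPM, with EPCAM and LYZ at 0 in all 48 libraries. CD68, listed as a leukocyte marker, was detected in every library, at 13.6 to 69.6 TPM (median 27.2). KRT14, an epithelial marker, had a median of 1.91 TPM and reached 78.9 TPM. The summed TPM of these 12 markers was 16.2 to 33.2 in H47_Ctrl, 19.5 to 58.2 in GLIS3 CRISPRko, 45.04 to 103 in VP64_A and 20.5 to 75.3 in VP64_Ctrl, and their part in the results was not tested. In 5 libraries the 50 most abundant genes took a share of counts more than 5 percentage points below that in both other libraries of the condition. These are VP64_Ctrl at 0 h replicate 3 (23.1%), GLIS3 CRISPRko at 0 h replicate 3 (30.7%) and at 24 h replicate 3 (31.4%), H47_Ctrl at 6 h replicate 1 (33.8%) and VP64_A at 12 h replicate 2 (36.6%). Some of the results that rest on them, though not all, are also given without these 5 libraries.

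The first comparison asks how the members stood in VP64_A, where GLIS3 was high, against VP64_Ctrl. SLC7A11 and NQO1 were lower in VP64_A at all 4 times, TXNRD1 was lower from 0 to 12 h, and TRIM16L was lower at 0 and 6 h but higher at 24 h. HMOX1 was higher at 12 h and ME1 at 24 h, so the 10 genes did not move as one. Genes were called at an adjusted p under 0.05 (edgeR's quasi-likelihood test over 10980 genes). Of the 10 members 4 were called at 0 h, 5 at 6 h, 4 at 12 h and 4 at 24 h, against 9.41%, 3.76%, 4.31% and 4.13% of all genes tested. Of these 17 calls 14 were lower and 3 higher, and without the low-share libraries the count was again 17, with 17 calls shared. On TPM (limma, log2(TPM + 1)) the split was 16 lower and 1 higher. The median log2 fold change of the members was −0.36 at 0 h, −0.93 at 6 h, −0.25 at 12 h and 0.17 at 24 h, while the median of all genes was within 0.02 of 0. These libraries are bulk RNA, in which fewer cells of a type and less RNA per cell cannot be told apart.

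**Figure D1:**
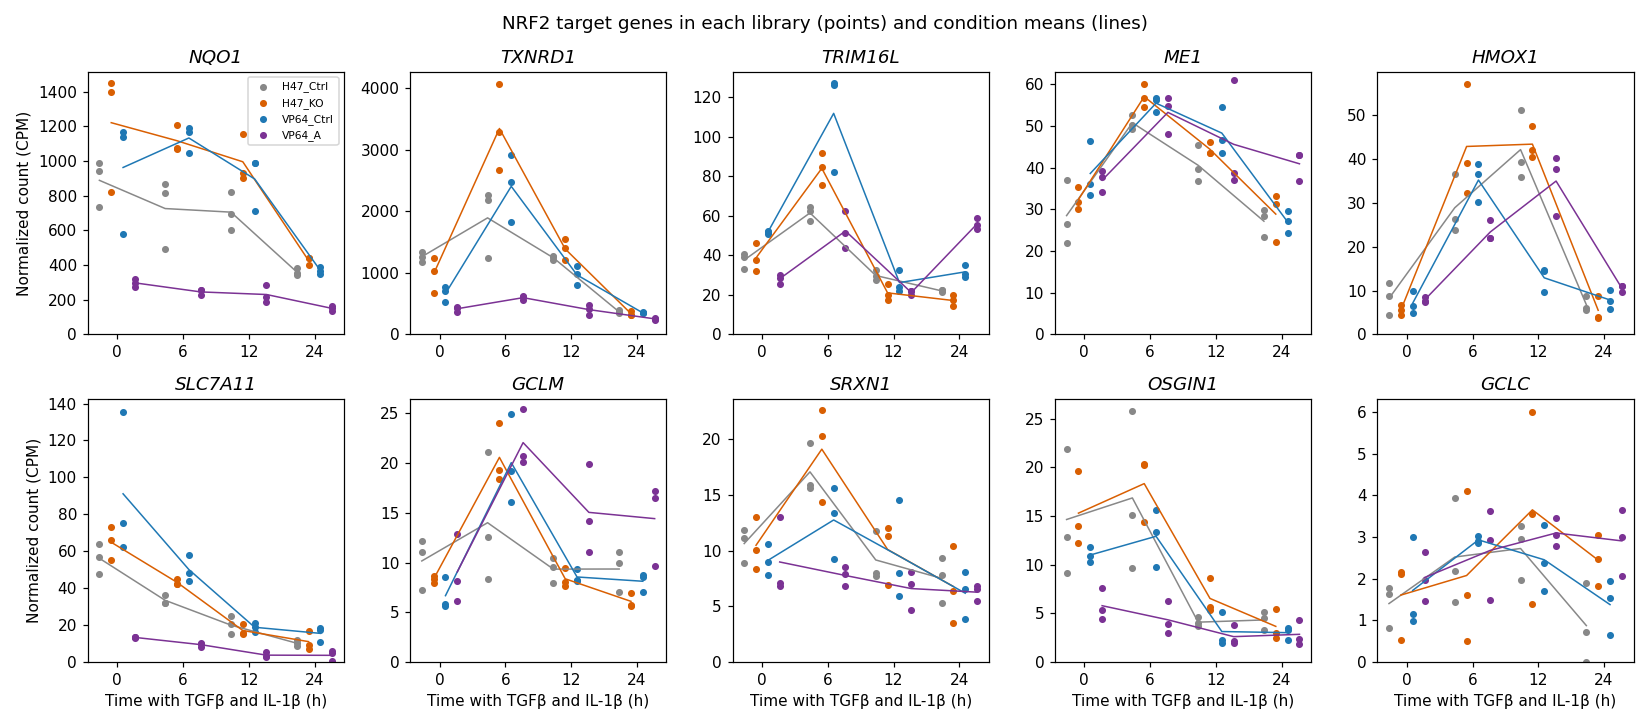
Normalized counts (CPM, linear axis from 0) of the 10 members against time with TGFβ and IL-1β (h, the 4 times drawn at equal distances). Points are the 3 libraries of a condition, lines join condition means, and colours mark the 4 groups of cells. NQO1 and SLC7A11 lay lower in VP64_A than in VP64_Ctrl, and TRIM16L at 24 h lay higher there.

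NQO1, which reduces quinones and is a widely used NRF2 reporter gene, stood at 1139, 1169 and 579 CPM in the 3 VP64_Ctrl libraries at 0 h and at 321, 273 and 298 CPM in VP64_A. At 6 h it stood at 1044, 1164 and 1189 CPM in VP64_Ctrl and at 225, 254 and 256 CPM in VP64_A. The groups did not overlap at these or the later times, and the lowest VP64_Ctrl library at 0 h was the low-share library. At 12 h the levels were 989, 711 and 989 CPM against 215, 189.5 and 286 CPM, and at 24 h 366, 346 and 391 CPM against 152, 133 and 164 CPM. Both groups thus ended lower at 24 h, and the gap between them narrowed on the CPM scale. NQO1 was 3.24-fold lower in VP64_A at 0 h, 4.62-fold at 6 h, 3.90-fold at 12 h and 2.46-fold at 24 h. Over the 4 times together its log2 fold change was −1.79 ± 0.11 (SE, adjusted p = 1.9e-14, edgeR).

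SLC7A11 imports cystine for glutathione synthesis. It had the largest change of the members, standing at 75.5, 62.2 and 136 CPM in VP64_Ctrl at 0 h and at 13.2, 13.1 and 13.5 CPM in VP64_A. At 6 h it stood at 48.3, 43.9 and 58.0 CPM against 9.59, 10.5 and 8.02 CPM. The groups did not overlap at either time, and the high library of VP64_Ctrl at 0 h was again the low-share library. At 12 h the levels were 21.3, 16.2 and 18.8 CPM against 5.37, 2.54 and 3.05 CPM, and at 24 h 10.9, 17.2 and 18.3 CPM against 5.74, 0.343 and 4.58 CPM, the lowest of which rests on 1 count (−1.59 without that library, adjusted p = 0.00251). SLC7A11 was lower in VP64_A each time, 6.83-fold before stimulation, 5.26-fold at 6 h, 5.67-fold at 12 h and 3.95-fold at the last time. The mean log2 fold change was −2.41 ± 0.16 (SE, adjusted p = 2.53e-13). Without the low-share libraries the change at 0 h was −2.38 for SLC7A11 and −1.96 for NQO1.

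Of the other glutathione genes, GCLM and GCLC encode the modifier and catalytic subunits of glutamate-cysteine ligase, which makes the first step of glutathione synthesis. GCLM was not called at any single time. Its level in VP64_A was 19.96, 14.2 and 11.02 CPM at 12 h against 8.09, 9.30 and 8.24 CPM in VP64_Ctrl, and 16.5, 17.2 and 9.64 CPM at 24 h against 7.03, 8.75 and 8.56 CPM. The groups did not overlap at these times. GCLM was called at 24 h only without replicate 3 of VP64_A (1.06, adjusted p = 0.0416). Averaged over the 4 times GCLM was 1.46-fold higher (log2 0.54 ± 0.14, SE, adjusted p = 0.00408). On TPM this was not called (adjusted p up to 0.220). GCLC, with condition means of 0.872 to 3.65 CPM, was not called at any time, and its mean log2 fold change was 0.36 ± 0.24 (SE, adjusted p = 0.331). Its counts were low, and what size of change they could detect was not tested.

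TXNRD1 keeps thioredoxin reduced with NADPH. At 6 h it stood at 1821, 2472 and 2918 CPM in VP64_Ctrl and at 615, 622 and 552 CPM in VP64_A, the widest gap of its time course. At 0 h it stood at 697, 763 and 530.2 CPM against 431, 367 and 453 CPM, at 12 h at 987, 799 and 1108 CPM against 476, 317 and 414 CPM, and at 24 h at 356, 348 and 344 CPM against 272, 238 and 247 CPM. The groups did not overlap at any time, but their distance changed with time. The log2 fold change (± SE) was −2.01 ± 0.21 at 6 h (4.03-fold lower, adjusted p = 3.7e-08) and −1.26 ± 0.20 at 12 h (2.40-fold lower, adjusted p = 6.97e-05). At 0 h it was −0.67 ± 0.20 (SE, adjusted p = 0.0300), a call lost without any one VP64_A library or without replicate 1 or 2 of VP64_Ctrl (adjusted p up to 0.122) or in a fit of only the libraries compared (adjusted p = 0.108), and kept without the low-share libraries (−0.81, adjusted p = 0.00562). At 24 h it was −0.47 ± 0.20 (SE, adjusted p = 0.242) and was not called, while on TPM it was −0.76 (adjusted p = 0.00086). SRXN1, sulfiredoxin, which repairs overoxidized peroxiredoxins, stood at 15.6, 13.4 and 9.27 CPM in VP64_Ctrl at 6 h and at 7.92, 6.83 and 8.54 CPM in VP64_A. These groups did not overlap, but SRXN1 was not called at any time or on average (mean log2 −0.35 ± 0.16, SE, adjusted p = 0.126). It was called on average only without replicate 3 of VP64_A at 0 h (−0.44, adjusted p = 0.048).

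ME1, which makes NADPH from malate, was called at 24 h only. It stood there at 43.1, 36.7 and 42.97 CPM in VP64_A and 24.2, 29.5 and 27.2 CPM in VP64_Ctrl, 1.53-fold higher in VP64_A (log2 0.62 ± 0.17, SE, adjusted p = 0.0339). This call was lost without any one of these libraries except replicate 2 of VP64_A (adjusted p up to 0.166) and on TPM (0.27, adjusted p up to 0.600). From 0 to 12 h its differences were small, with log2 fold changes of −0.05 to −0.11 that were not called.

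HMOX1, haem oxygenase, which BACH1 represses directly, behaved unlike NQO1. At 12 h it stood at 26.9, 40.2 and 37.7 CPM in VP64_A and 14.6, 14.4 and 9.66 CPM in VP64_Ctrl, 2.71-fold higher (log2 1.44 ± 0.22, SE, adjusted p = 4.08e-05). At 6 h the order was opposite, with 21.9, 21.99 and 26.1 CPM in VP64_A and 30.1, 36.6 and 38.8 CPM in VP64_Ctrl, but this difference was not called (−0.58 ± 0.22, SE, adjusted p = 0.172). Neither 0 h nor 24 h was called. Its mean over the 4 times was 0.35 ± 0.11 (SE, adjusted p = 0.0282), a call lost on TPM and without any one of 5 libraries (adjusted p up to 0.0575). Those are VP64_A at 12 h replicate 2 and VP64_Ctrl at 0 h replicate 2, 6 h replicate 1, 12 h replicate 3 and 24 h replicate 2.

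OSGIN1, a stress-induced growth inhibitor, stood at 9.74, 15.6 and 13.3 CPM in VP64_Ctrl at 6 h and at 2.92, 3.84 and 6.21 CPM in VP64_A, 2.98-fold lower (log2 −1.57 ± 0.36, SE, adjusted p = 0.00569). The call was lost without replicate 1 of VP64_A or replicate 2 of VP64_Ctrl at 6 h (adjusted p up to 0.0543), and with limma on log2(TPM + 0.1) (adjusted p = 0.0812). At 0 h its groups did not overlap either, at 10.8, 10.3 and 11.8 CPM against 5.32, 7.55 and 4.45 CPM, with a log2 fold change of −0.92 ± 0.31 (SE, adjusted p = 0.0588). That value passed the threshold under several alternatives, among them DESeq2 (adjusted p = 0.05) and limma on log2(TPM + 1) (adjusted p = 0.0261), but not log2(TPM + 0.1). At 12 and 24 h OSGIN1 was low in both groups.

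TRIM16L is annotated in part as a transcribed pseudogene and resembles TRIM16 on the same chromosome, so its counts are uncertain where reads can be shared. It stood at 51.0, 52.2 and 52.0 CPM in VP64_Ctrl at 0 h and at 30.2, 28.5 and 25.7 CPM in VP64_A, and at 6 h at 81.9, 127 and 126 CPM against 51.1, 43.5 and 62.4 CPM. At 24 h the order was opposite, with 28.9, 30.8 and 35.3 CPM in VP64_Ctrl and 55.1, 59.0 and 53.6 CPM in VP64_A. The groups did not overlap at any of the 4 times, with VP64_A lower at the first 3. The difference on the log2 scale was −0.87 ± 0.17 (SE, adjusted p = 0.000564) at 0 h and −1.09 ± 0.17 (adjusted p = 4.35e-05) at 6 h. It was −0.31 ± 0.19 at 12 h, which was not called (adjusted p = 0.494), and turned to 0.81 ± 0.17 at 24 h (adjusted p = 0.00263). On TPM the 24 h value was 0.48 and was not called (adjusted p up to 0.338), on a scale where the median of all genes was itself −0.25. For TRIM16, an E3 ligase, the difference was −0.66 at 0 h (adjusted p = 0.00351), and it was not called at 6 h (−0.34), 12 h (0.48) or 24 h (0.15, adjusted p = 0.705).

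Averaged over the 4 times, 7 of the 10 members were called, 5 lower (SLC7A11, NQO1, TXNRD1, OSGIN1 and TRIM16L) and 2 higher (GCLM and HMOX1), against 18.4% of all genes tested, 9.15% higher and 9.23% lower. On TPM the 5 lower members were called and neither GCLM nor HMOX1. NFE2L2 was slightly lower in VP64_A (−0.23 ± 0.08, SE, adjusted p = 0.0349), while KEAP1 (adjusted p = 0.207) and BACH1 (adjusted p = 0.932) were not called.

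**Figure D2:**
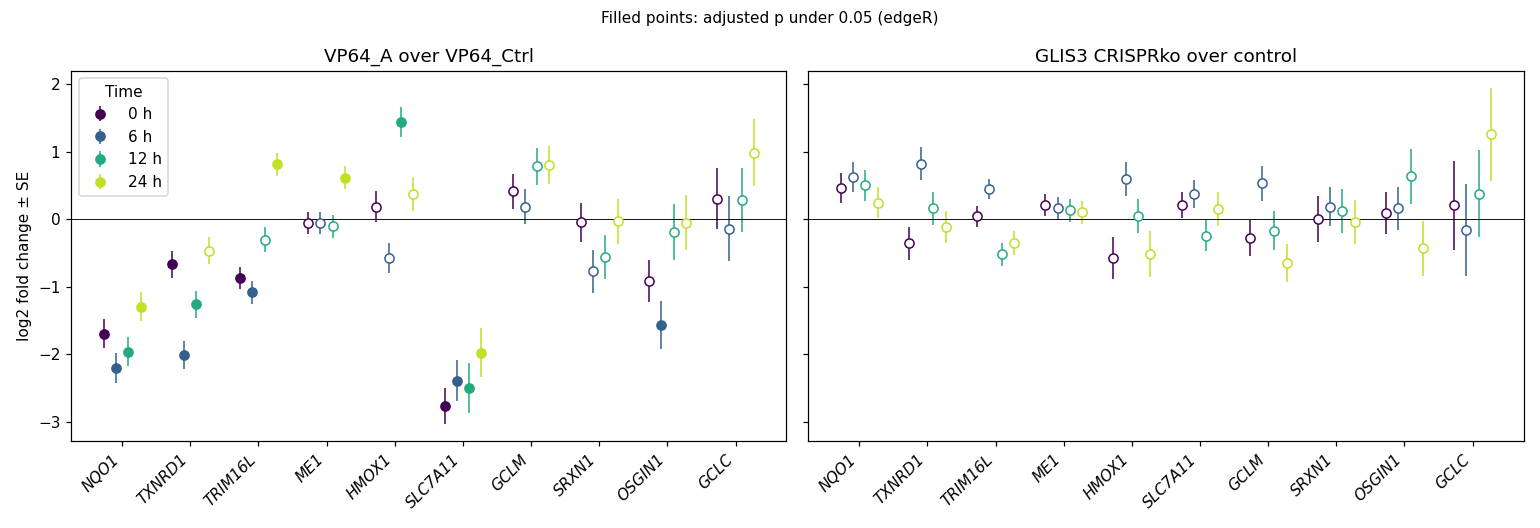
The log2 fold change (± SE) of each member, GLIS3 CRISPRko over H47_Ctrl and VP64_A over VP64_Ctrl, at 4 times (colours). Filled points have an adjusted p under 0.05 (edgeR). Filled points appear only in the CRISPRa panel, and most of them lie below 0, down to −2.77 for SLC7A11 at 0 h.

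In the CRISPRko arm GLIS3 was low, with 1 to 21 counts per library in GLIS3 CRISPRko and 6 to 45 in H47_Ctrl. The GLIS3 levels of these groups overlapped at 24 h. No member was called at any single time, and NQO1 alone was called on average, higher in GLIS3 CRISPRko. It stood at 1448, 1395 and 819 CPM in GLIS3 CRISPRko at 0 h and 734, 988 and 943 CPM in H47_Ctrl, and at 6 h at 1070.0, 1206 and 1074 CPM against 493, 867 and 818 CPM. At 12 h it stood at 1154, 929 and 903 CPM against 822, 600.5 and 692 CPM, and at 24 h at 438, 398 and 442 CPM against 383, 344 and 354 CPM. The groups overlapped at 0 h only, through the low-share library of GLIS3 CRISPRko. Averaged over the 4 times NQO1 was 1.37-fold higher (log2 0.46 ± 0.11, SE, adjusted p = 0.0179). The value was 0.44 (adjusted p = 0.0013) without the low-share libraries, and 0.42 (adjusted p = 0.0502, not called) without replicate 1 of H47_Ctrl at 0 h. Background was 3.07% of 10962 genes for this average.

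For the single times, edgeR called 0 of the 40 member values, against 0.301% of all genes at 0 h, 0.319% at 6 h, 0.0821% at 12 h and 0.21% at 24 h. At an unadjusted p under 0.05 the members counted 0, 4, 2 and 1 of 10, beside 1253, 1228, 842 and 1096 of the 10962 genes tested. DESeq2 called 2 of 40, NQO1 at 6 h (0.64, adjusted p = 0.0373) and TXNRD1 at 6 h (0.84, adjusted p = 0.00429). Voom with cyclic loess called TXNRD1 at 6 h (0.45, adjusted p = 0.0423), and edgeR without the low-share libraries called NQO1 at 0 h (0.65, adjusted p = 0.0399). TXNRD1 at 6 h stood at 3284, 4071 and 2672 CPM in GLIS3 CRISPRko and at 1239.9, 2175 and 2259.7 CPM in H47_Ctrl, without overlap, and its log2 fold change was 0.82 ± 0.24 (SE, adjusted p = 0.137, edgeR). The lowest of these libraries is the low-share library of H47_Ctrl. TRIM16L at 6 h stood at 75.8, 91.7 and 84.6 CPM against 64.4, 62.5 and 57.4 CPM (0.45 ± 0.15, SE, adjusted p = 0.231). SLC7A11, the member with the largest change in the CRISPRa arm, stood at 66.3, 55.2 and 72.9 CPM in GLIS3 CRISPRko at 0 h and 47.5, 56.8 and 64.0 CPM in H47_Ctrl, which overlapped. Its mean log2 fold change was 0.12 ± 0.11 (SE, adjusted p = 0.648). The median over the members was 0.06, 0.41, 0.12 and −0.08 at the 4 times, beside 0.02, −0.03, 0.00 and 0.02 for all genes.

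The time courses ask how the members changed under TGFβ and IL-1β within one group of cells. The contrasts of a group share its 0 h libraries, and they share libraries with the comparisons between groups. The pattern depended on the member. HMOX1 rose early and returned by 24 h, and SLC7A11 and NQO1 fell. On CPM, TXNRD1, TRIM16L, ME1 and GCLM had their highest condition mean at 6 h in each group, except TRIM16L in VP64_A, which was highest at 24 h. On TPM, ME1 in VP64_Ctrl was highest at 0 h (23.7 TPM against 19.3 TPM at 6 h).

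**Figure D3:**
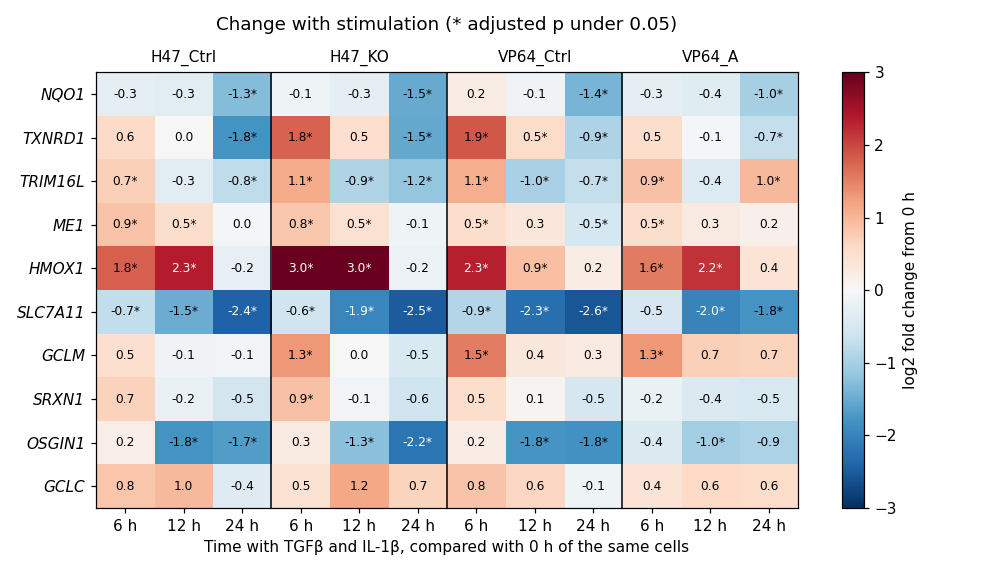
The log2 fold change from 0 h of the same cells (colour and number) for each member at 6, 12 and 24 h in the 4 groups. A star marks an adjusted p under 0.05 (edgeR). HMOX1 at 6 and 12 h is positive in every group, and NQO1 and SLC7A11 at 24 h are negative in every group.

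In H47_Ctrl 3 members rose and 1 fell at 6 h, 2 rose and 2 fell at 12 h, and 5 fell at 24 h, against 15.9%, 19.6% and 10.3% of all genes called in either direction. In GLIS3 CRISPRko 6 rose and 1 fell at 6 h, 2 rose and 3 fell at 12 h, and 5 fell at 24 h (background 23.9%, 27.4% and 15.8%). In VP64_Ctrl 5 rose and 1 fell at 6 h, 2 rose and 3 fell at 12 h, and 6 fell at 24 h (background 28.8%, 26.8% and 16%). In VP64_A 4 rose at 6 h, 1 rose and 2 fell at 12 h, and 1 rose and 3 fell at 24 h (background 17.4%, 19.7% and 13.6%). The call counts over the 3 times were 13, 17, 17 and 11 of 30, and without the low-share libraries 14, 17, 15 and 12. On TPM fewer of the calls were rises. H47_Ctrl had 5 rises of 13 calls on counts and 3 of 11 on TPM, GLIS3 CRISPRko 8 of 17 and 4 of 15, VP64_Ctrl 7 of 17 and 2 of 14, and VP64_A 6 of 11 and 3 of 10. On the TPM scale the median of all genes was itself shifted, by between −0.81 and 0.16 in these contrasts.

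HMOX1 stood at 11.6, 4.35 and 8.64 CPM in H47_Ctrl at 0 h, at 26.3, 23.7 and 36.6 CPM at 6 h, at 39.4, 51.0 and 35.9 CPM at 12 h and at 8.75, 5.61 and 5.94 CPM at 24 h. It rose by 1.79 at 6 h (log2, adjusted p = 1.05e-05) and by 2.35 at 12 h, and its 24 h value (−0.24) was not called. In GLIS3 CRISPRko the rise was 2.96 at 6 h and 2.97 at 12 h. In VP64_A it was 1.56 and 2.17, so that 3 groups stood at least as high at 12 h as at 6 h. VP64_Ctrl differed in its course, with a rise of 2.33 at 6 h and only 0.91 at 12 h (adjusted p = 0.00357), which on TPM was not called (0.25, adjusted p = 0.521).

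SLC7A11 was lower at each later time in H47_Ctrl, GLIS3 CRISPRko and VP64_Ctrl, while in VP64_A its mean CPM was about level from 12 h (3.65) to 24 h (3.56). In H47_Ctrl its log2 change was −0.75 and −1.49 at the first 2 times and −2.43 at 24 h (adjusted p = 1.45e-09), where it stood at 10.1, 8.41 and 11.9 CPM. The 24 h change was −2.50 in GLIS3 CRISPRko, −2.56 in VP64_Ctrl and −1.77 in VP64_A. The 12 and 24 h falls kept their calls in each group under every alternative and with each library left out. The 6 h fall in VP64_Ctrl (−0.87) was lost without the low-share library at 0 h (adjusted p = 0.154) or without replicate 2 at 6 h, and that in GLIS3 CRISPRko (−0.59) without 5 of the 6 libraries compared in turn (adjusted p up to 0.158), all but replicate 2 at 0 h. The GLIS3 CRISPRko call was also lost with DESeq2 and without the low-share libraries (−0.48, adjusted p = 0.0596). In H47_Ctrl the 6 h fall was lost without replicate 3 at 0 h (adjusted p = 0.0537) and on TPM (adjusted p up to 0.353).

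For NQO1 the log2 change at 24 h was −1.30 in H47_Ctrl, −1.52 in GLIS3 CRISPRko, −1.39 in VP64_Ctrl and −0.99 in VP64_A, with adjusted p from 8.31e-06 to 0.00118, and by edgeR on all libraries none of its 6 or 12 h values was called. On TPM (log2(TPM + 1)) it was called lower at 6 and 12 h in every group except H47_Ctrl at 6 h (adjusted p = 0.116), with values from −0.45 in VP64_Ctrl at 6 h, where the median of all genes was −0.65, to −0.69 in VP64_A at 12 h. Without the low-share libraries edgeR called it lower in GLIS3 CRISPRko at 12 h (−0.48, adjusted p = 0.0296). OSGIN1 fell at 12 h in all 4 groups (−1.80, −1.25, −1.77 and −1.04), the VP64_A value only narrowly (adjusted p = 0.0447) and lost without replicate 1 or 2 at 0 h or replicate 1 or 3 at 12 h (adjusted p up to 0.177). At 24 h its change was −1.67, −2.19 and −1.81 in the first 3 groups and −0.95 in VP64_A, where it was not called (adjusted p = 0.0943). TXNRD1 rose at 6 h in GLIS3 CRISPRko (1.77) and VP64_Ctrl (1.86), while H47_Ctrl (0.59, adjusted p = 0.101) and VP64_A (0.52, adjusted p = 0.0718) were not called. Both of the latter were called without the low-share libraries (0.82 and 0.48). At 12 h TXNRD1 was called higher in VP64_Ctrl alone (0.54, adjusted p = 0.0426), a call lost without replicate 1 or 3 of either time (adjusted p up to 0.201), and under 8 of the 9 alternative fits, all but DESeq2 (0.38 without the low-share libraries). By 24 h TXNRD1 had fallen in each group (−1.78, −1.54, −0.93 and −0.72), the fall in VP64_A being lost without replicate 3 at 0 h or replicate 2 or 3 at 24 h (adjusted p up to 0.0619).

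TRIM16L rose at 6 h in all 4 groups (0.71, 1.12, 1.10 and 0.89), and at 24 h it was below its 0 h level in 3 groups (−0.77, −1.16 and −0.70) and above it in VP64_A (0.98, adjusted p = 6.42e-05), a call lost on TPM (0.67, adjusted p up to 0.0877). On TPM the 6 h rise was called in GLIS3 CRISPRko alone (0.66, adjusted p = 0.0474). ME1 rose at 6 h in all 4 groups (0.85, 0.81, 0.53 and 0.52). On TPM none of these 4 was called, and the VP64_Ctrl value was −0.20 where the median of all genes was −0.65. The counts-based calls of ME1 in VP64_Ctrl and VP64_A were also lost with single libraries left out (adjusted p up to 0.0754 and 0.0959). Those are replicates 1 and 2 at 0 h and replicate 2 at 6 h in VP64_Ctrl, and replicates 2 and 3 at both times in VP64_A. ME1 was also called at 12 h in H47_Ctrl (0.53) and GLIS3 CRISPRko (0.45), higher, and at 24 h in VP64_Ctrl (−0.52), lower, and each of these calls was lost with single libraries left out (adjusted p up to 0.191, 0.118 and 0.159). Those are replicates 1 and 2 at 0 h and 2 and 3 at 12 h in H47_Ctrl, every library compared but replicate 3 at 0 h in GLIS3 CRISPRko, and replicate 3 at 0 h and 1 at 24 h in VP64_Ctrl. GCLM rose at 6 h in GLIS3 CRISPRko (1.30), VP64_Ctrl (1.53) and VP64_A (1.30) and stood at 21.1, 12.5 and 8.34 CPM in H47_Ctrl, where it was not called (0.49, adjusted p = 0.226). On TPM the GCLM calls in GLIS3 CRISPRko and VP64_Ctrl were lost (adjusted p up to 0.121 and 0.0657). SRXN1 rose at 6 h in GLIS3 CRISPRko (0.87, adjusted p = 0.0295), a call lost without replicate 1 or 2 at 0 h or replicate 1 or 3 at 6 h (adjusted p up to 0.119) and on TPM. GCLC was not called in any group, except in VP64_Ctrl at 6 h without the low-share libraries (1.40, adjusted p = 0.0431).

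Whether the time course differed between the groups of an arm was tested as an interaction at 6 and 24 h. In the CRISPRko arm 0 of 20 member values were called by edgeR, against 0.00912% of all genes at 6 h and 0% at 24 h. At an unadjusted p under 0.05 there were 3 at 6 h, GCLM, HMOX1 and TXNRD1, and 0 at 24 h, beside 869 and 616 of the 10962 genes tested. DESeq2 (1.21, adjusted p = 0.00594) and voom with cyclic loess (0.81, adjusted p = 0.0343) each called TXNRD1 at 6 h, where edgeR gave 1.18 ± 0.34 (SE, adjusted p = 0.293). In the CRISPRa arm 2 of 20 were called, with a background of 0.0911% at 6 h and 0.209% at 24 h. The rise of TXNRD1 from 0 to 6 h was smaller in VP64_A than in VP64_Ctrl by 1.34 on the log2 scale (interaction −1.34 ± 0.28, SE, adjusted p = 0.0475). This call was lost with each of the 12 libraries left out in turn, except replicate 2 of VP64_Ctrl at 0 h (adjusted p up to 0.196), and without the low-share libraries (−1.21, adjusted p = 0.0836). The change of TRIM16L from 0 to 24 h was higher in VP64_A by 1.69 ± 0.24 (SE, adjusted p = 0.000289). It kept its call under every alternative and with each library left out (adjusted p up to 0.0375).

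Of the regulators of NRF2, NFE2L2 and BACH1 rose at 6 h. NFE2L2 stood at 63.5 CPM on average in H47_Ctrl at 0 h and 139 CPM at 6 h, and rose at 6 h in each group (log2 1.13 in H47_Ctrl, 1.28 in GLIS3 CRISPRko, 1.31 in VP64_Ctrl and 1.15 in VP64_A, adjusted p from 2.6e-08 to 1.56e-06). At 24 h it was not called in any group. BACH1 rose at 6 h in H47_Ctrl (1.11), GLIS3 CRISPRko (1.52) and VP64_Ctrl (1.94), and its change in VP64_A was 0.37 (adjusted p = 0.49). The difference between the last 2 was −1.57 ± 0.47 (SE, adjusted p = 0.284) and was not called. KEAP1 was not called in any comparison. Of 14 regulators tested of 15 listed, 0 were called in GLIS3 CRISPRko on average over the 4 times, against 3.07% of all genes. In VP64_A 6 were lower and 0 higher (median log2 −0.19), against 9.23% and 9.15% of all genes. MAFK (−0.89 ± 0.17, SE, adjusted p = 0.000162) and MAFG (−0.54 ± 0.13, SE, adjusted p = 0.00238), small MAF partners of NRF2, and NFE2L1 (−0.49 ± 0.15, SE, adjusted p = 0.0158), a relative of NRF2, had the largest changes. From 0 to 24 h the small MAF gene MAFF rose in both controls (2.12 in H47_Ctrl and 2.77 in VP64_Ctrl), and MAFK rose in VP64_Ctrl (1.23).

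A list of 25 other known NRF2 targets, of which 22 were tested, looks beyond the members. It too was chosen with earlier results of these data known, so its counts are not independent support. TRIM16, which resembles the member TRIM16L, is on the list. On average over the 4 times 12 of the 22 were lower in VP64_A and 0 higher, against 9.23% and 9.15% of all genes. Their median log2 fold change was −0.46 beside 0.00 for all genes. At single times 7, 9, 7 and 2 were lower at 0, 6, 12 and 24 h, against 5.12%, 1.9%, 1.94% and 2.13% of all genes. At each of these times 0 of the 22 were higher. PIR (−1.11 ± 0.14, SE, adjusted p = 3.5e-07) and the aldo-keto reductase AKR1C1 (−0.98 ± 0.08, SE, adjusted p = 8.5e-11) were among those that were lower. In GLIS3 CRISPRko 2 of the 22 were called, both higher, among them AKR1C3 (0.73 ± 0.16, SE, adjusted p = 0.00631), and the median was 0.13. Of all genes, 1.98% were higher and 1.09% lower there. From 0 to 24 h, 7 of the 22 fell and 3 rose in H47_Ctrl, and 10 fell and 1 rose in GLIS3 CRISPRko. In VP64_Ctrl 9 fell and 3 rose, and in VP64_A 4 fell and 2 rose. Of all genes, in the same order, 3.73%, 6.78%, 5.57% and 4.55% fell, and 6.53%, 9.07%, 10.4% and 9% rose. The ferritin gene FTH1 was among the listed targets that rose in the controls (1.24 in H47_Ctrl and 1.58 in VP64_Ctrl), while AKR1C3 fell (−1.44 and −1.56).

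**Figure D4:**
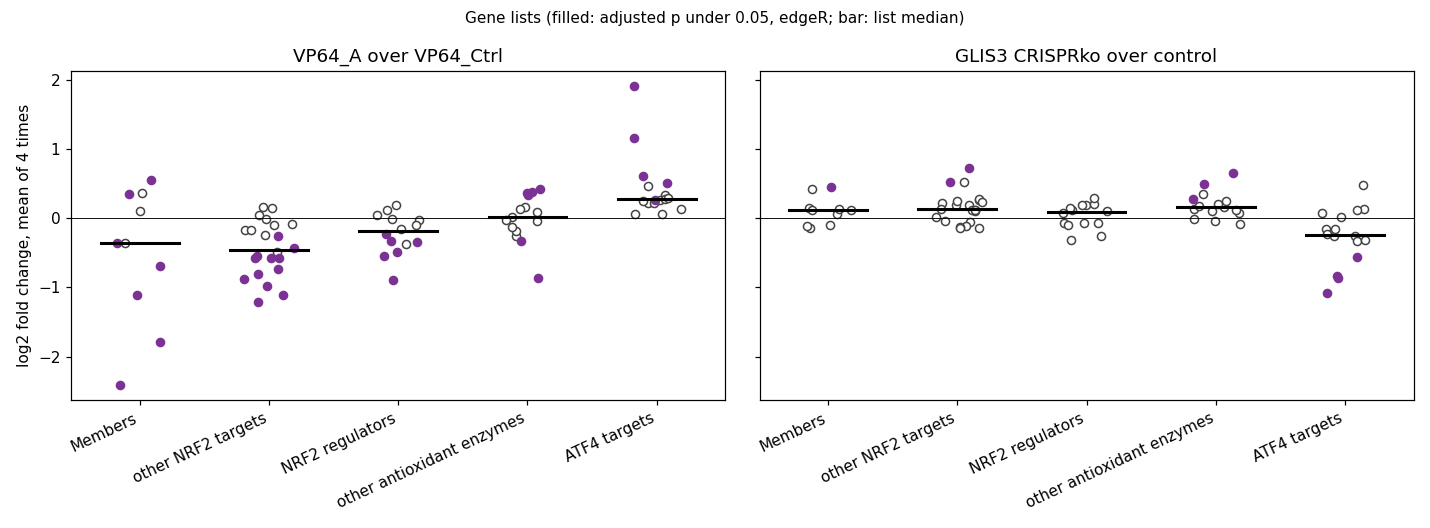
The log2 fold change, mean of 4 times, of every tested gene in 5 lists, in GLIS3 CRISPRko over H47_Ctrl and in VP64_A over VP64_Ctrl. Filled points have an adjusted p under 0.05 (edgeR) and bars are list medians. The other NRF2 targets have a median of −0.46 in VP64_A over VP64_Ctrl and 0.13 in GLIS3 CRISPRko over H47_Ctrl.

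Antioxidant enzymes outside the NRF2 lists (15 tested of 18) gave 4 higher and 2 lower in VP64_A, with a median of 0.02, and 3 higher in GLIS3 CRISPRko. Of all genes, 9.15% were higher and 9.23% lower in VP64_A, and 1.98% were higher and 1.09% lower in GLIS3 CRISPRko. PRDX6, a peroxiredoxin, was lower in VP64_A (−0.87 ± 0.11, SE, adjusted p = 2.96e-07) and higher in GLIS3 CRISPRko (0.65 ± 0.12, SE, adjusted p = 0.00111). The superoxide dismutase SOD1 (0.42) and catalase, CAT (0.37), were higher in VP64_A, PRDX2 was higher in VP64_A (0.33) and in GLIS3 CRISPRko (0.28), and GPX1 was higher in GLIS3 CRISPRko (0.49). SOD2, the mitochondrial superoxide dismutase, rose from 0 to 24 h by 6.16 in H47_Ctrl and 6.64 in VP64_Ctrl, whereas CAT (−0.93 and −0.54) and PRDX6 (−0.83 and −1.07) fell. ATF4, the factor of the amino acid stress response, shares the target SLC7A11 with NRF2, so its other targets were also listed. Of 16 tested of 18, 5 were higher and 0 lower in VP64_A (median 0.27), and 4 were lower and 0 higher in GLIS3 CRISPRko (median −0.24), beside the same shares of all genes. The part of ATF4 in the change of SLC7A11 was not tested. DDIT4 (1.91 ± 0.13, SE, adjusted p = 1.78e-13), the amino acid transporter SLC7A5 (1.16 ± 0.09, SE, adjusted p = 6.11e-12) and the serine synthesis gene PHGDH (0.61 ± 0.07, SE, adjusted p = 1.32e-07) led in VP64_A. DDIT4 (−1.08), PSAT1 (−0.87) and ASNS (−0.84) led in GLIS3 CRISPRko. From 0 to 24 h DDIT4 rose in H47_Ctrl (2.45) and VP64_Ctrl (2.15), with SLC7A5 (0.91) and SHMT2 (0.78) in H47_Ctrl and CHAC1 (0.95) and MTHFD2 (0.79) in VP64_Ctrl.

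The members' patterns over the 16 conditions differed among themselves. The Pearson r of a member's log2 CPM, centred within its arm, with the mean of the other members was 0.964 for TXNRD1, 0.915 for SRXN1, 0.746 for OSGIN1, 0.733 for TRIM16L, 0.724 for ME1 and 0.683 for NQO1. It was lower for SLC7A11 (0.541), GCLM (0.465), HMOX1 (0.437) and GCLC (0.193). The mean profile was highest in VP64_Ctrl at 6 h (1.15 above the mean of its arm, log2) and lowest at 24 h in GLIS3 CRISPRko and H47_Ctrl (both −0.88). Of 5940 other genes with a mean of at least 10 CPM in each arm, the 5 most like this profile were DCBLD2 (r = 0.966), CD276 (0.946), S100A10 (0.935), GNG10 (0.935) and ABI2 (0.929). These values describe 16 condition means that share libraries, scaling and time points, and carry no test.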

How the data were processed

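RNA-seq (Nextera XT, NextSeq 500) was made from 48 libraries in 16 conditions of 3. The authors trimmed reads, removed ribosomal RNA with SortMeRNA, used STAR for alignment (GRCh38) and Salmon for quantification. Tool versions, annotation and counting strand are not given in the sources used here. The authors deposited estimated counts, not normalized between libraries, and TPM, scaled for transcript length, for 29744 genes in 48 columns. Members with a close copy, such as TRIM16L, have uncertain counts where reads match both.

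Estimated counts were rounded (6.38% were not whole). Each arm was fitted over its 24 libraries with edgeR 4.0.16 (R 4.3.3), TMM and filterByExpr (minimum count 10, minimum total 15), keeping 10962 genes in the CRISPRko and 10980 in the CRISPRa arm, with a two-sided quasi-likelihood F test and Benjamini-Hochberg adjustment over all genes tested. The common dispersion was 0.0354 and 0.0336. CPM values use TMM-scaled library sizes, except those of GLIS3, which use library totals. The members and gene lists were chosen with earlier results of these data known. Genes outside the members were named by a rule (the up to 3 largest changes called per list in a comparison), and 1 result of these is not reported here.

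Alternatives were DESeq2 1.42.0, its size factors in edgeR, no filter, the replicate number as a block, only the libraries compared, each library left out, and, for TPM, limma 3.58.1 with a pseudocount of 1 or 0.1 before log2. Voom with cyclic loess and a fit without the 5 low-share libraries were chosen later, after seeing the data. Simulated counts with known changes were used to test the scripts. No pair of libraries was within sampling noise (lowest chi-square over degrees of freedom 3.80 in 48 pairs, 0 identical). Groups and replicates come from the labels. A library's depth (2321990 to 10661004 counts) limits the precision of low members such as GCLC.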

Additional observations from a re-analysis of the deposited data

Results flagged for a closer look

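The effect of VP64_A over VP64_Ctrl on TXNRD1 differed between 6 h and 0 h by −1.34 on the log2 scale (interaction, edgeR, adjusted p = 0.0475). That on TRIM16L differed between 24 h and 0 h by 1.69 (adjusted p = 0.000289), the effect being −0.87 at 0 h and 0.81 at 24 h. Both were marked because the difference between time points was itself tested and passed the threshold. The TXNRD1 call was lost with 11 of 12 libraries left out in turn and under 6 of 9 alternatives, while that of TRIM16L was kept in all.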

How the results depend on the processing

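In the CRISPRko arm the count of members called over the 4 times was 0 and became 2 with DESeq2, 1 with voom and cyclic loess and 1 without the low-share libraries, and the count of interactions was 0 and became 1 with DESeq2 and 1 with voom. With single libraries left out, the call averaged over the times ranged from 0 to 1. In the CRISPRa arm the 2 interactions became 1 with DESeq2 size factors, the replicate block, limma on log2(TPM + 1) or log2(TPM + 0.1), only the libraries compared or the low-share libraries left out, and 1 to 2 with single libraries left out. TRIM16L is the one that remained. The counts of the other comparisons, each summed over its times, stayed within 1.5 times, though not at every single time or for rises alone on TPM. Of 553 alternative values for the 27 called differences and interactions, 508 kept the call and direction, 45 lost the call and 0 turned. All those of NQO1 and SLC7A11 in the CRISPRa arm were kept. Of the 58 called changes with time, 46 were kept with each library left out and 37 under every alternative, 21 being lost in some, and ME1 at 6 h and TXNRD1 at 12 h in VP64_Ctrl turned on TPM (−0.20 and −0.08), where the median of all genes was −0.65 and −0.51. On TPM that median lay between −0.40 and 0.35 for differences between groups. Replicate numbers did not pair the libraries (2 of 12 numbered pairs in each arm correlated above 0.1), and the replicate block lost no other difference between groups and gained OSGIN1 at 0 h in the CRISPRa arm (−0.93, adjusted p = 0.041). Only the libraries compared gives no separate value for averages over the times. Causes were not tested. Depth limits GCLC and, in VP64_A at 24 h, SLC7A11.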
